A study of Homo sapiens with 5 samples.

Results

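The wide H2A-K130ac peaks of C4-2B cells are the peaks of 800 bp or more in each of 2 deposited lists, one from cells treated with abiraterone and one from cells treated with Romidepsin. They were chosen by their width alone, as the end minus the start of the called interval, and were joined by peak name to the gene annotation of the same list. There were 1645 of 67807 peaks (2.43%) in the abiraterone list and 2748 of 91399 (3.01%) in the Romidepsin list, together 4393 of 159206. H2A-K130ac is histone H2A acetylated at lysine 130. ChIP-seq with an antibody to this mark was run on VCaP and C4-2B cells, and the 3 VCaP samples of the 5 in the series were not used here. C4-2B is a human prostate cancer line, although the sample labels call both C4-2B samples breast cancer, and the paper was followed. The treatment of each C4-2B sample comes from its short title, and the shared protocol of the labels describes VCaP cells given Romidepsin at 0.5 µM. The study treated C4-2B cells with both drugs for ChIP followed by PCR, but the dose and time of the sequenced C4-2B libraries are not stated, and no untreated C4-2B sample was analysed. The labels give 1 sample for each treatment. The study's Reporting Summary says that samples were run in duplicate, and whether duplicates were pooled is not stated. With 1 list a treatment, the lists were not tested against each other, and intervals cover counting error only. The files give no read counts, so the depth behind a peak is unknown.

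Acetylation of a histone lysine removes its positive charge and is read by bromodomain proteins. Acetyltransferases such as KAT2A add the group and deacetylases such as HDAC1 and HDAC2 remove it, and Romidepsin inhibits the latter enzymes. Abiraterone inhibits CYP17A1, which is needed to make androgens, on which prostate cancer cells depend. The width of a called peak is the stretch over which the caller found more reads than in the control. It therefore depends on how far the mark spreads, on the depth of the library and on the caller's rules for joining neighbouring signal.

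For 30 wide peaks in the abiraterone list and 44 in the Romidepsin list the interval covered an annotated transcription start site, where a promoter lies under the peak. The promoters of the 3 widest such peaks in each list are shown because they let the bases at these sites be read, and were chosen after their values were seen. They were kept where the annotated transcript was within 1% of the RefSeq gene in length. They are RefSeq sequences of GRCh38.p14, running from 250 bases before to 50 bases after the gene's start, on the gene's strand. Capitals mark a match, on either strand, to the GC box GGGCGG, the CCAAT box CCAAT, the TATA box TATAAA, the E-box CACGTG or the sterol regulatory element TCACNCCAC.
COQ5: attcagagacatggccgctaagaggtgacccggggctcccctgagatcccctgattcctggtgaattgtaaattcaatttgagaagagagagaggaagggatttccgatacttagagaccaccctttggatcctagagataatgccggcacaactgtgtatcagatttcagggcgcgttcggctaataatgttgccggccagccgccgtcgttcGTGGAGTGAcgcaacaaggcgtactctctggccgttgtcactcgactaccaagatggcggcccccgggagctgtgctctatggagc
ZDHHC12-DT: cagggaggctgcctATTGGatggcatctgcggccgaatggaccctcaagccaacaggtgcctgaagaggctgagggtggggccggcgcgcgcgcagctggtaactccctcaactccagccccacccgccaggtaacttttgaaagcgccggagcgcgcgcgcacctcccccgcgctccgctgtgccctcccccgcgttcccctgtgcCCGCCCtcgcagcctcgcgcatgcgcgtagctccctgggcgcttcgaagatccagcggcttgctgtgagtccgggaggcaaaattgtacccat
RTKN: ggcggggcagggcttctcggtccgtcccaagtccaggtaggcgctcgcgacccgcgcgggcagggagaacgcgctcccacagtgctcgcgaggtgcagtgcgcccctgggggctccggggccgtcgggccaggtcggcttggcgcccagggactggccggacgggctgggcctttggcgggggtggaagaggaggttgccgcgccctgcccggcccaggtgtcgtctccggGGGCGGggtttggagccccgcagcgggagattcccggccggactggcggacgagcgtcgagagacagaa
NR1H3: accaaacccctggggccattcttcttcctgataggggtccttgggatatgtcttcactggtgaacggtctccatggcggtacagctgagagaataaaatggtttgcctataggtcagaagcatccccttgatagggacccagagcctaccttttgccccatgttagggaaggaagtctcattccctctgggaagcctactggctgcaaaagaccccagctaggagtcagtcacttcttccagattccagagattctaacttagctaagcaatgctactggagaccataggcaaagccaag
CCER1: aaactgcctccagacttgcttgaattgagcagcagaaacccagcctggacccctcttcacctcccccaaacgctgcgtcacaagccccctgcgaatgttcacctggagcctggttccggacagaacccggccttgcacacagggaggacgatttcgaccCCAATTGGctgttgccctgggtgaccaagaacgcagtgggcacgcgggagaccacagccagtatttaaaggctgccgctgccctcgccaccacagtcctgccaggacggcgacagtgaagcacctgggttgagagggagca
NOX1: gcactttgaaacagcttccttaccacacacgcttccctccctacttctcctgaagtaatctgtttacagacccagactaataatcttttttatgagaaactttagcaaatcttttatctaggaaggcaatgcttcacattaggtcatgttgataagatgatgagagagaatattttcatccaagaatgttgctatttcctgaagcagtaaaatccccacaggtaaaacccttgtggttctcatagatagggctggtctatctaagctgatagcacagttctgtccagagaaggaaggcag
The peak coordinates are of another build, hg19, so no base of these windows was placed within a peak. The windows lie at chr12:120529109-120529408 (minus strand) for COQ5, chr9:128724212-128724511 (plus) for ZDHHC12-DT and chr2:74441888-74442187 (minus) for RTKN in GRCh38.p14. Those of the Romidepsin list lie at chr11:47248050-47248349 (plus) for NR1H3, chr12:90955127-90955426 (minus) for CCER1 and chrX:100874310-100874609 (minus) for NOX1. COQ5, a methyltransferase of coenzyme Q synthesis, holds 1 match to the sterol regulatory element, which 1.15% of the 27305 RefSeq promoters hold. RTKN, which encodes rhotekin, has a window of 75.0% G and C with 36 CpG and 1 GC box, a motif found in 44.6% of all promoters. NR1H3, which encodes the oxysterol-sensing liver X receptor alpha, has 50.3% G and C with 2 CpG and none of the 5 motifs. CCER1 holds 2 CCAAT boxes, one on each strand and overlapping, and this motif occurs in 35.7% of all promoters. NOX1, a superoxide-producing NADPH oxidase, has the lowest G and C content of the 6, 40.3%, with 1 CpG and no match. The windows thus range from CpG-rich to CpG-poor.

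RefSeq promoters were found for 26 of the 30 abiraterone genes whose start site lay inside a wide peak and for 36 of the 44 Romidepsin genes. These promoters were taken by gene, and only 7 and 13 of them met the length match required of the windows shown above. The other windows can lie at a start site outside the peak, so the values here describe genes, not sequence under peaks. The median G and C content of these promoters was 64.5% and 61.3%. Both lay between the quartiles of genes with a start site inside a narrower peak only. Those genes had a median of 61.3% over 241 promoters in the abiraterone list and 60.5% over 314 in the Romidepsin list. The quartiles of the wide set, 54.1 to 68.3% and 53.3 to 71.0%, overlapped those of the narrower set, 52.7 to 68.7% and 50.1 to 68.0%. The GC box stood in 57.7% and 50.0% of promoters in the wide set and in 55.2% and 51.6% in the narrower set. TATA boxes were held by 2 of 26 and 5 of 36 (7.69% and 13.9%), against 8.30% and 10.2% in the narrower set.

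The wide peaks were a tail of the width distribution rather than a separate group. Their median width was 884 bp (quartiles 833 to 988, maximum 1889) in the abiraterone list and 903.5 bp (842 to 1002, maximum 2224) in the Romidepsin list. They held 6.45% of all base pairs under abiraterone peaks (1.53 Mb) and 7.80% of those under Romidepsin peaks (2.60 Mb). At least 1000 bp was reached by 387 and 701 peaks, at least 1500 bp by 10 and 32, and at least 2000 bp by 0 and 3. Just outside the threshold, 7 abiraterone and 19 Romidepsin peaks were 1 bp too short, and just inside it 15 and 14 measured 800 bp. Among the peaks of 800 bp were one in intron 1 of GRIK4 in the abiraterone list and one in intron 2 of AKT1 in the Romidepsin list. The first had a fold over the control of 1.79 and the second of 2.61. A peak 1 bp under the threshold, 763596 bp upstream of SORCS1 in the abiraterone list, had a fold of 4.65, and one nearest to CSF3R in the other list had 2.61. The width threshold therefore does not fall at a gap in the data.

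**Figure D1:**
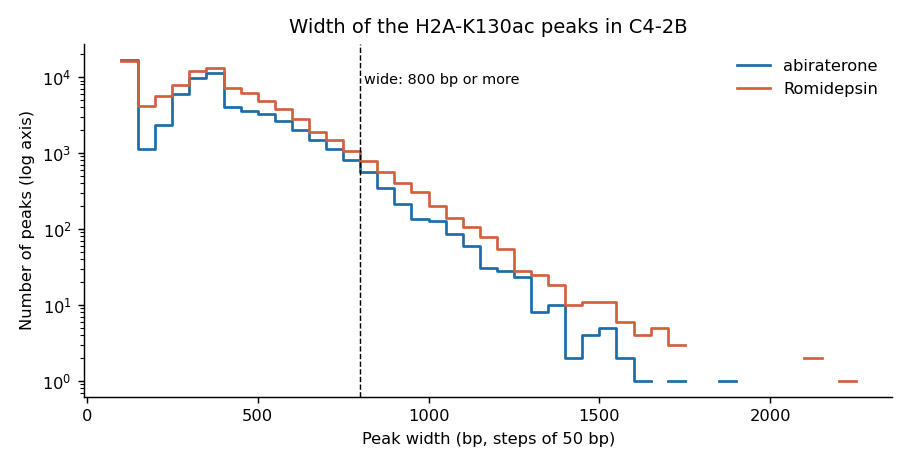
Number of peaks (log axis) by width in steps of 50 bp for the abiraterone (blue) and Romidepsin (orange) lists, with a dashed line at 800 bp. Counts fall without a break across the threshold, from 808 to 569 peaks in the steps on either side of it for abiraterone and from 1050 to 780 for Romidepsin.

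The very strongest peaks by the authors' fold over the control were narrower ones. The fold and the q-value came from the same peak call as the width and are given as a description. The median fold was 2.83 for both wide and narrower abiraterone peaks, and 3.44 for wide against 2.61 for narrower Romidepsin peaks. The highest fold of a wide peak was 8.55 in the abiraterone list, where narrower peaks reached 18.0, and 7.55 in the Romidepsin list, where they reached 10.5. In each list the strongest wide peak ranked 34th by fold, and 39 and 86 wide peaks were among the 1000 of highest fold. Wide peaks were 2.43% and 3.01% of all peaks, so they were more frequent among these 1000 than in the whole lists. A q-value of 0.01 or lower was held by 35.7% of wide and 24.7% of narrower abiraterone peaks. The same shares were 6.59% and 2.61% for Romidepsin, so most wide peaks in both lists lay above that q-value. Within the wide peaks, width and fold rose together only weakly, with a Spearman rho of 0.21 over 1645 and 0.098 over 2748 peaks that share a library and a caller. The summit stood at a median of 48.0% and 47.4% of the width, with quartiles of 31.7 to 66.4% and 29.9 to 66.4%.

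The 10 widest peaks of the abiraterone list lay outside promoters, from 4170 to 446236 bp from the nearest start site. The widest, 1889 bp at chr12:13589975-13591863, was intergenic, 60296 bp upstream of LINC01559, with a fold of 4.48. The next, 1724 bp, lay 128610 bp upstream of MIR205HG, the host transcript of the epithelial microRNA miR-205. A peak of 1638 bp stood in intron 2 of FSTL1, which encodes a secreted follistatin-like glycoprotein, and one of 1579 bp in intron 2 of RBFOX1, a neuronal splicing regulator. The RBFOX1 peak had a fold of only 1.90, near the lowest in the list. Then followed peaks of 1550 bp (nearest gene TFEC, 446236 bp away), 1546 bp (CATSPERB intron 2, 4534 bp from a start site) and 1541 bp, the last in exon 7 of 14 of CACNB2, a calcium channel subunit. Peaks of 1529 bp near TPI1P3, 1524 bp in intron 1 of ZBTB20, 4170 bp from a start site, and 1514 bp, 10639 bp upstream of LMOD2, completed the 10. Only the LMOD2 peak among them was overlapped by a Romidepsin peak.

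The widest Romidepsin peaks were also mostly intergenic or intronic, but 2 of the 10 were promoter peaks. The widest of all, 2224 bp at chr10:130313252-130315475 with a fold of 6.02, lay 388784 bp upstream of MKI67, the gene of the proliferation marker Ki-67. The next, 2136 bp, was 1472150 bp from the glutamate receptor gene GRIK2. The peak of 2108 bp covered part of exon 4 of 4 of CADM3-AS1, an antisense transcript of the adhesion gene CADM3, and was the only one of the 10 overlapped by an abiraterone peak. Peaks of 1721 bp near CPS1-IT1, 1719 bp in intron 6 of MTSS1, 1710 bp near RDH14 and 1685 bp in intron 1 of CRACD followed. The promoter peaks were at L3MBTL1, a chromatin-compacting reader of methylated histones (1689 bp, ending 423 bp upstream of the start site), and at FBXL22 (1671 bp, 352 bp downstream). A peak of 1661 bp near C4orf36 was labelled as a 3′ untranslated region.

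Promoters, exons and untranslated regions made up a larger share of wide than of narrower peaks in the same list. In the authors' annotation, 164 wide abiraterone peaks (9.97%, exact 95% binomial interval 8.56 to 11.5%) lay within 3 kb of a start site, against 7.52% of narrower peaks. The difference was 2.45 percentage points (95% Newcombe interval 1.07 to 4.0). For Romidepsin the share was 314 peaks (11.4%, 10.3 to 12.7%) against 8.77%, a difference of 2.66 points (1.5 to 3.91). Exons outside promoters held 67 wide abiraterone peaks (4.07% against 2.67%, difference 1.40 points, 0.54 to 2.48). They held 181 wide Romidepsin peaks (6.59% against 3.20%, difference 3.38 points, 2.51 to 4.38). Among Romidepsin peaks, 3′ untranslated regions (2.37% against 1.52%) and 5′ untranslated regions (0.80% against 0.33%) also differed with intervals above 0. In the abiraterone list their differences, 0.43 and 0.21 points, had intervals that included 0.

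Introns and intergenic sequence still held most wide peaks. Distal intergenic peaks were 45.7% of wide and 48.5% of narrower abiraterone peaks (difference -2.77 points, -5.19 to -0.32), and 45.9% against 48.0% for Romidepsin (-2.13, -4.01 to -0.23). Introns held 32.8% of wide against 38.1% of narrower Romidepsin peaks (-5.23, -6.99 to -3.43), and 37.9% against 39.6% for abiraterone, where the interval of the difference, -4.04 to 0.70, included 0. First introns showed no difference outside counting error in either list. Peaks more than 500 kb from any start site were 3.28% of wide against 4.94% of narrower Romidepsin peaks (-1.66 points, -2.28 to -0.92), and 5.84% against 6.23% for abiraterone (-0.39, -1.44 to 0.86). The nearest gene was protein coding for 82.2% of wide and 82.5% of narrower abiraterone peaks, and for 82.4% and 82.7% of Romidepsin peaks.

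**Figure D2:**
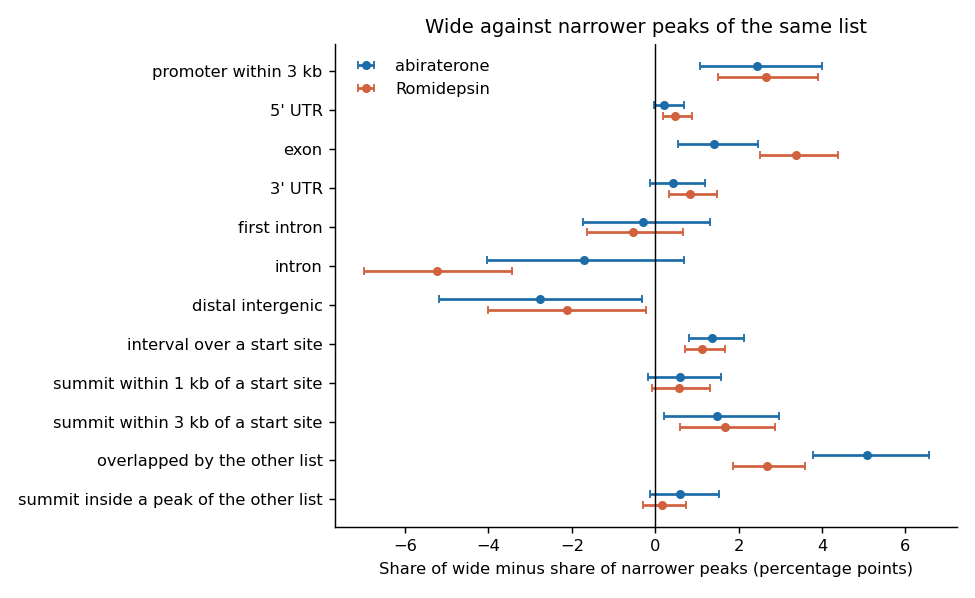
Share of wide peaks minus share of narrower peaks of the same list, in percentage points, for each annotation class and position measure, with 95% Newcombe intervals, for abiraterone (blue) and Romidepsin (orange). Promoter, exon, start site and overlap differences lie above 0 in both lists and intergenic differences below 0. Summits within 3 kb lie nearer to 0 than promoter labels within 3 kb, and summit overlap lies nearer to 0 than interval overlap.

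A longer interval meets a start site or an exon more easily. Distance to a start site was therefore also measured from the summit, which is 1 base in every peak. Exon labels were not counted from the summit, so the exon differences are not free of width. A start site lay inside 1.82% of wide and 0.46% of narrower abiraterone peaks, and inside 1.60% and 0.47% of Romidepsin peaks. The summit itself was within 1 kb of a start site for 3.28% of wide and 2.69% of narrower abiraterone peaks (difference 0.60 points, -0.17 to 1.58). For Romidepsin the shares were 3.46% and 2.89% (0.56 points, -0.07 to 1.32), and both intervals included 0. Within 3 kb the summit shares were 8.69% and 7.21% (1.49 points, 0.21 to 2.96) for abiraterone, and 10.0% and 8.38% (1.67 points, 0.58 to 2.86) for Romidepsin. Per Mb covered by the peaks, wide peaks had fewer exon labels than narrower ones, 43.8 against 79.5 in the abiraterone list and 69.5 against 92.2 in the Romidepsin list. Start sites inside the interval were more frequent per Mb in wide peaks, 19.6 against 13.6 for abiraterone and 16.9 against 13.6 for Romidepsin. These rates rest on 30 and 44 wide peaks and carry no interval. Promoter labels per Mb were fewer in wide peaks, 107 against 224 and 121 against 252. Summits within 1 kb of a start site were fewer too, 35.3 against 80.0 and 36.5 against 83.3. Each peak carries 1 class label and 1 summit, so a lower rate of these per Mb in wide peaks is built in by their width. Intron labels were lower in the same way, 408 against 1180 and 346 against 1095. The label and summit rates are therefore no measure of where wide peaks lie.

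These shares changed gradually with width. Exon peaks rose from 2.14% of abiraterone peaks under 200 bp to 3.96% at 600 to under 800 bp, 3.58% at 800 to under 1000 bp and 5.68% from 1000 bp. For Romidepsin the same steps ran from 2.38% to 4.74%, 6.40% and 7.13%. The difference in exon share between wide peaks and peaks of 600 to under 800 bp was 0.11 points (-0.90 to 1.28) for abiraterone and 1.84 points (0.84 to 2.94) for Romidepsin. Against the same peaks, the promoter differences were 1.48 points (-0.08 to 3.18) and 0.72 points (-0.63 to 2.14), and these intervals included 0. Summits within 3 kb of a start site were 7.91% and 8.35% in the bins just below and just above 800 bp for abiraterone, and 9.95% and 9.77% for Romidepsin.

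**Figure D3:**
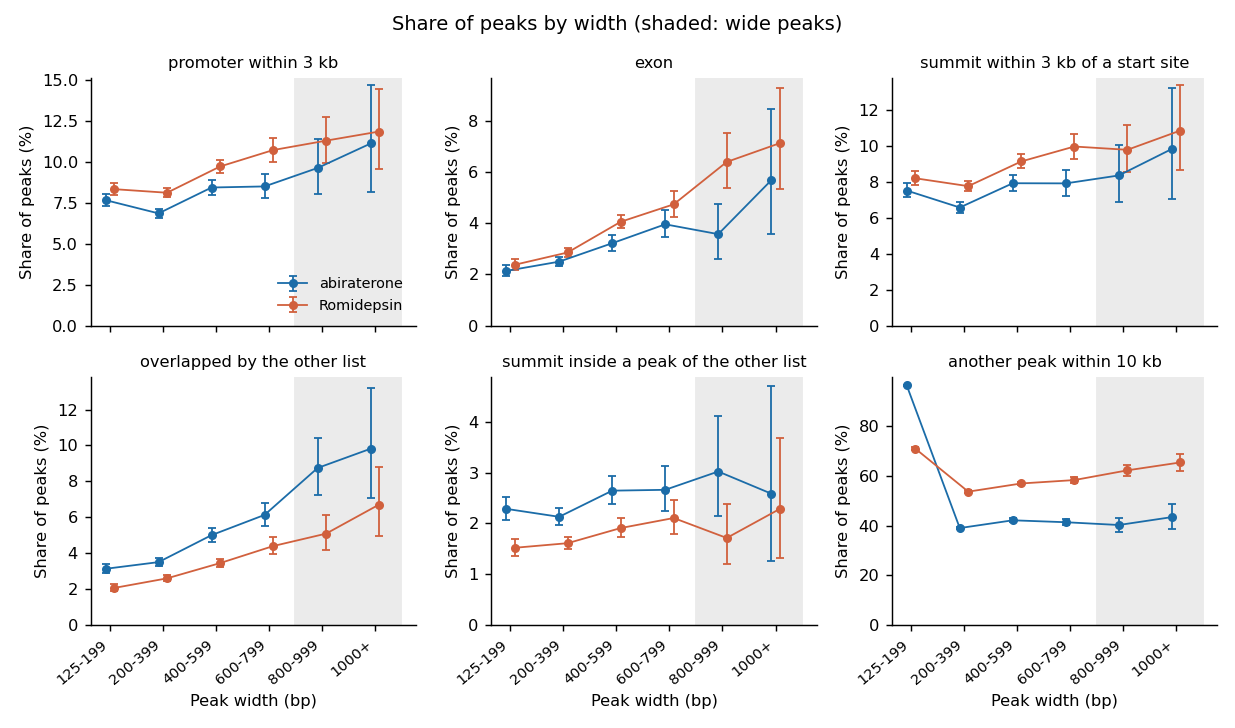
Share of peaks (%) in 6 width bins for 6 measures, with exact 95% binomial intervals, for abiraterone (blue) and Romidepsin (orange); the shaded bins are the wide peaks. Exon and overlap shares climb across the bins, from 2.14 to 5.68% and from 3.12 to 9.82% for abiraterone, while the summit overlap stays between 2.13 and 3.02% in that list.

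The wide peaks with a summit within 1 kb of a start site lay at genes of varied function. In the abiraterone list the widest were at LIMS1, a focal adhesion adaptor (1274 bp), FNBP1, a membrane-bending protein (1271 bp), CYB561D1 (1260 bp) and FAM180A (1248 bp). The CYB561D1 peak had the highest fold of the 10, 6.52, and ended 172 bp upstream of the start site. ARMC9, a ciliary gene (1166 bp), CNOT9, a subunit of the CCR4-NOT deadenylase (1125 bp), MRM1, a mitochondrial ribosomal RNA methyltransferase (1101 bp), and PIWIL2 (1088 bp) came next. CD226, known as an immune receptor (1083 bp), and NEK2, a mitotic kinase (1059 bp), completed the 10. The widest Romidepsin peak of this kind was at NR1H3 (1654 bp, chr11:47268567-47270220, fold 4.35), followed by FICD (1621 bp), CCER1 (1615 bp) and PNMA1 (1597 bp). TNS1, which encodes tensin (1376 bp), and MTA2, a subunit of the NuRD complex that also holds HDAC1 and HDAC2 (1326 bp), had folds of 5.16 and 5.23. ZNF630 (1172 bp), NOX1 (1170 bp) and FYN, a Src family kinase (1151 bp), were also among the widest. None of these peaks was overlapped by a peak of the other list.

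Exon peaks were named after their values were seen. The 67 wide exon peaks of the abiraterone list fell in exons of 59 genes, and the 181 of the Romidepsin list in exons of 165 genes. They lay in the last exon in 10 and 23 cases. After CACNB2, the widest in the abiraterone list were in exon 7 of 16 of PLS1 (1363 bp), an actin-bundling protein, exon 3 of 14 of LINC00536 (1330 bp) and exon 22 of 26 of PFKM (1271 bp), the muscle phosphofructokinase. Those of the Romidepsin list were in exon 10 of 12 of MCM9 (1554 bp), a DNA helicase, exon 45 of 66 of COL11A2 (1450 bp), a fibrillar collagen, and exon 16 of 23 of NFKB2 (1444 bp), an NF-κB subunit. Exon 2 of 23 of PARP1, the DNA damage sensor, held a Romidepsin peak of 1318 bp with a fold of 4.03. The nearest start site can belong to another gene, since the PFKM exon peak was nearest to ASB8.

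Of the wide abiraterone peaks, 148 (9.0%, interval 7.66 to 10.5%) were overlapped by a Romidepsin peak of any width, against 3.91% of narrower peaks, a difference of 5.08 points (3.79 to 6.57). Of the wide Romidepsin peaks, 151 (5.49%, 4.67 to 6.41%) were overlapped by an abiraterone peak, against 2.82% (2.67 points, 1.88 to 3.6). When only peaks with q of 0.01 or lower were kept, the differences were -0.014 and -0.061 points, with intervals that included 0. This cut both lists, to 588 wide and 16312 narrower abiraterone and 181 wide and 2315 narrower Romidepsin peaks. Fewer partners were left to overlap, so these values cannot show whether the excess held among stronger peaks. Against peaks of 600 to under 800 bp, with no cut on q, the overlap differences were 2.87 (1.42 to 4.47) and 1.11 points (0.18 to 2.13). Counted by the summit, the excess was small. The summit of 2.92% of wide and 2.32% of narrower abiraterone peaks lay inside a Romidepsin peak (0.60 points, -0.12 to 1.54). The summit of 1.86% of wide and 1.70% of narrower Romidepsin peaks lay inside an abiraterone peak (0.15 points, -0.30 to 0.74), and both intervals included 0. Where a wide abiraterone peak met a narrower Romidepsin peak, in 154 pairs, the partner had a median width of 366.5 bp and the pair shared a median of 278 bp. The 162 pairs of a wide Romidepsin with a narrower abiraterone peak were alike, with a partner of 368.5 bp and 270.5 bp shared.

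At 6 sites a wide peak of one list overlapped a wide peak of the other, 0.365% of the wide abiraterone and 0.218% of the wide Romidepsin peaks. They were 4.05% of the overlapped wide abiraterone peaks, near the 3.01% of Romidepsin peaks that were wide. Of the overlapped wide Romidepsin peaks they were 3.97%, near the 2.43% of abiraterone peaks that were wide. The largest shared stretch, 849 bp, was in an intron of SPAG16, a sperm flagellar protein, 32383 bp from the VWC2L start site, between an abiraterone peak of 1465 bp and a Romidepsin peak of 948 bp. At the site 237082 bp from MAF, a bZIP transcription factor, peaks of 927 and 804 bp shared 661 bp and their summits were 90 bp apart. At the promoter of LINC00265, 726 bp from the start site, peaks of 959 and 947 bp shared 542 bp and their summits were 85 bp apart. In an intron of SIL1, an endoplasmic reticulum exchange factor, 383 bp was shared. Near ARID5B, a chromatin regulator, 104 bp was shared, and in an intron of CAMTA1, a transcription activator, 9 bp. The summits were 586 to 1188 bp apart at the 4 sites other than MAF and LINC00265.

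**Figure D4:**
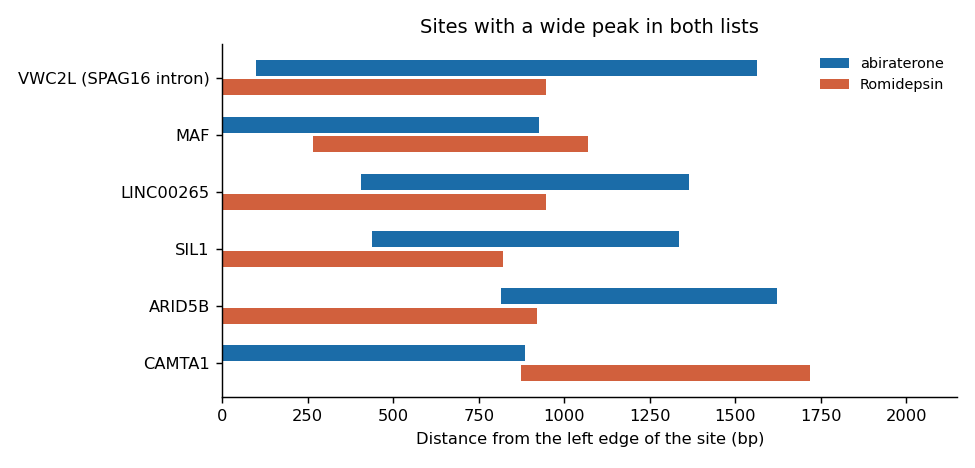
Extent of the abiraterone (blue) and Romidepsin (orange) peaks at the 6 sites where both are wide, in bp from the left edge of each site. The peaks at VWC2L, MAF and LINC00265 share 849, 661 and 542 bp, while those at ARID5B and CAMTA1 touch only at their ends.

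Among genes that were nearest to any peak, 1424 of 13600 (10.5%) in the abiraterone list and 2279 of 16464 (13.8%) in the Romidepsin list had at least 1 wide peak. The 354 genes with a wide peak in both lists were 24.9% of the abiraterone and 15.5% of the Romidepsin genes with a wide peak. These shares stand beside the 13.8% of all genes with a Romidepsin peak and 10.5% of those with an abiraterone peak that had a wide one. A peak of any width is far commoner, and 86.1% and 71.1% of the genes with any peak had one in the other list. Genes with a wide peak had a median of 8 peaks in either list, against 2 and 3 for genes without one. The share of genes with a wide peak was 3.21% among the 3891 genes with 1 abiraterone peak and 52.3% among the 532 with 20 or more. For Romidepsin it was 3.14% of 4263 and 56.0% of 797 genes. A wide peak near a gene thus went with the number of its peaks.

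No gene had more than 5 wide peaks. In the abiraterone list MAT2B, a methionine adenosyltransferase subunit, had 5 of 58 peaks, but they were spread over 1817 kb, from 9664 bp upstream to 1791006 bp downstream of a start site. LPP, an adhesion-site protein, had 5 of 48 peaks, of which 4 were in its introns, with widths of 800 to 945 bp. EXOC4, an exocyst subunit, had 4 wide peaks of 863 to 1108 bp, in introns 9 and 10, exon 11 of 18 and a 5′ untranslated region. IQCJ-SCHIP1, TENM4 and SEMA3A also had 4 each, and LINC01559, MIR205HG, ZWINT and NAALADL2 had 3. Under Romidepsin MTSS1, an actin- and membrane-binding protein, had 5 of 22 peaks, of 810 to 1719 bp, within 216 kb. PLXNA2, a semaphorin receptor, had 5 of 63, of 870 to 1103 bp, within 64.1 kb. The PLXNA2 peaks were in introns 3 and 4 of 31, their folds were 2.58 to 2.61, and 1 of them was overlapped by an abiraterone peak. RPA4 had 5 by its start site, but 4 of these lay in introns 22, 23 and 25 of DIAPH2. HDGFL1 had 5 intergenic ones, and GRIK2, ABTB3, BMPR1B, PPARGC1A and MIR4642 had 4 each. The BMPR1B peaks of 883 and 1542 bp lay in introns 10 and 3 of 15 of UNC5C. MTSS1, PLXNA2, RPA4 and HDGFL1 had no wide peak in the abiraterone list, where they had 7, 46, 16 and 22 peaks.

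Some wide peaks stood close together. Another Romidepsin wide peak lay within 10 kb of 121 wide peaks of that list (4.40%, 3.67 to 5.24%), against 26 in the abiraterone list (1.58%, 1.03 to 2.31%). The lists were not tested against each other, and the Romidepsin list holds more wide peaks. When wide peaks less than 100 kb apart were put in one group, the abiraterone list had 7 groups of 3 and none larger, and the Romidepsin list had 47 groups of 3, 10 of 4 and 2 of 5, PLXNA2 and MTSS1. The tightest group, at CADM3-AS1, held 3 Romidepsin peaks of 996, 874 and 2108 bp within 8.78 kb and was named after its values were seen. Another peak of any width lay within 10 kb of 41.0% of wide and 55.4% of narrower abiraterone peaks (-14.4 points, -16.8 to -12.0). For Romidepsin it was 63.1% against 58.9% (4.18 points, 2.33 to 6.0), and -1.66 points (-3.37 to 0.10) when counted within 3 kb. Peaks under 200 bp were 26.4% of the abiraterone list, and 92.7% of them had another peak within 300 bp, against 39.6% of those in the Romidepsin list. These short peaks were then left out of the narrower set but still counted as neighbours. The abiraterone difference was 0.84 points (-1.55 to 3.28) and the Romidepsin difference 7.84 points (5.99 to 9.67).

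Most peaks of the genes in the fixed lists were narrower, and the counts of members are to be read against the 10.5% and 13.8% of all genes with a peak that had a wide one. Of the androgen-responsive prostate genes, 3 of 17 genes with an abiraterone peak (17.6%) had a wide one, and 3 of their 77 peaks (3.90%) were wide, against 2.43% of all peaks. TRPM8, an androgen-responsive cation channel, had a peak of 889 bp over a start site, and NDRG1 and STEAP4 had peaks of 852 and 967 bp that were 89953 and 179218 bp upstream. Under Romidepsin 1 of 13 (7.69%) had one, STEAP3, with a peak of 908 bp that lay 7004 bp upstream. KLK3, the gene of prostate-specific antigen, had no wide peak in either list. Of the prostate markers, 0 of 7 and 0 of 5 genes with a peak had a wide one, so the wide peaks gave no check of the cell type. Of the markers of immune, endothelial and stromal cells it was 0 of 4 and 1 of 6, COL1A2, 181043 bp away.

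Of the sterol and fatty acid genes, 2 of 16 with an abiraterone peak (12.5%) and 2 of 20 with a Romidepsin peak (10.0%) had a wide one, near the shares over all genes. Under abiraterone these were ELOVL6, a fatty acid elongase (819 bp, intron 2 of 4), and SCD, the stearoyl-CoA desaturase (818 bp, 2785 bp downstream of the start site). Under Romidepsin SREBF1, the master regulator of fatty acid synthesis genes, had a peak of 885 bp at chr17:17727719-17728603. It was in the promoter class, 775 bp upstream of an annotated start site. Its fold was 2.61 and its −log10 q 0.717, where 2 stands for a q-value of 0.01. This fold was the commonest among wide Romidepsin peaks (23.3%), and 27.3% of narrower ones had it. INSIG1, which retains the SREBF proteins in the endoplasmic reticulum, had 3 of its 22 peaks wide, of 807, 1152 and 856 bp. All lay upstream at 23331 to 84872 bp and had the same fold and −log10 q as the SREBF1 peak. None of these peaks was overlapped by the other list.

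Of the acetyltransferase, deacetylase and bromodomain genes, 1 of 17 (5.88%) and 2 of 20 (10.0%) had a wide peak, against 10.5% and 13.8% of all genes. HDAC4, a class IIa deacetylase, had one in each list, of 807 bp and 871 bp downstream of a start site under abiraterone, and of 876 bp in intergenic sequence 170787 bp upstream under Romidepsin. BRD2, a bromodomain reader of acetylated histones, had a Romidepsin peak of 907 bp 2661 bp downstream of a start site. By host gene, exon 12 of 13 of HDAC3 held a Romidepsin peak of 858 bp with a fold of 5.16, for which DIAPH1 was the nearest start site. KAT2A, HDAC1 and HDAC2 had none in either list. Of the androgen and steroid synthesis genes, 1 of 12 (8.33%) and 2 of 12 (16.7%) had a wide peak, near the same shares. SRD5A2, a steroid 5-alpha-reductase, had 1 under abiraterone (829 bp, 54116 bp upstream). AKR1C3, which makes testosterone from androstenedione, had 1 in intron 2 of 8 (1099 bp) and SRD5A3 1 in intron 1 of 4 (910 bp) under Romidepsin. CYP17A1, the target of abiraterone, had none.

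The 20 very long neuronal and fragile-site genes had wide peaks most often, 9 of 20 under abiraterone and 11 of 20 under Romidepsin. CNTN5, CSMD3, DLG2, DMD and OPCML were counted in both lists. Their peaks were not wide more often than others, since 14 of 786 abiraterone peaks (1.78%) and 19 of 840 Romidepsin peaks (2.26%) were wide, below the shares of 2.43% and 3.01% over all peaks. DLG2, a synaptic scaffold, had abiraterone peaks of 822, 920 and 875 bp and Romidepsin peaks of 956 and 1147 bp, all in introns. WWOX, which spans a common fragile site, had Romidepsin peaks of 1082 and 966 bp in intron 8 of 8, and a further one of 888 bp there was nearest to MAF. The abiraterone peak of 828 bp in exon 28 of 46 of PTPRD, a receptor phosphatase, was overlapped by a Romidepsin peak. These genes were thus near many peaks, of which a small share was wide.

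The share of peaks that were wide differed among chromosomes. In the abiraterone list it was highest on chromosome 7 (151 of 4599, 3.28%, 2.79 to 3.84%) and chromosome 1 (3.04%), and, chromosome Y apart, lowest on chromosome 22 (5 of 525, 0.95%, 0.31 to 2.21%). For Romidepsin it was highest on chromosome 1 (321 of 9017, 3.56%, 3.19 to 3.96%) and lowest on chromosome 21 (1.75%, 1.00 to 2.82%). Chromosome 22 held 3.32% (2.36 to 4.52%) wide Romidepsin peaks. Chromosome X held 1.47% wide peaks (0.96 to 2.15%) in the abiraterone list and 2.99% (2.48 to 3.56%) in the Romidepsin list. Chromosome 3 was ordered the other way, with 2.69% under abiraterone and 2.18% under Romidepsin, as were chromosomes 7 and 9. No test was made between the lists.

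**Figure D5:**
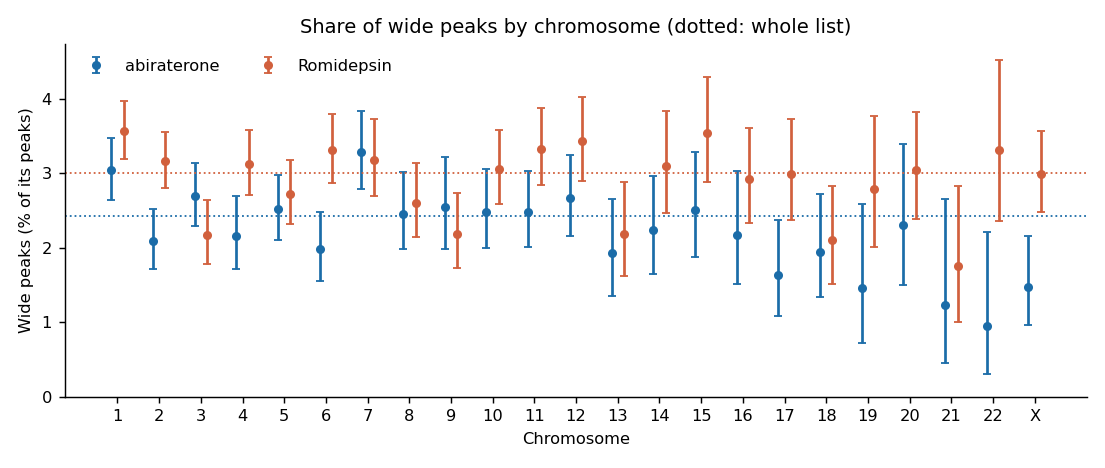
Share of the peaks on each chromosome that were wide (%), with exact 95% binomial intervals, for abiraterone (blue) and Romidepsin (orange); dotted lines give the share over each whole list, 2.43% and 3.01%. Chromosomes 22 and X stand at 0.95% and 1.47% in the abiraterone list and at 3.32% and 2.99% in the Romidepsin list.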

How the data were processed

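H2A-K130ac ChIP-seq of 1 abiraterone and 1 Romidepsin C4-2B sample was used, with paired reads of 75 bases per the labels. The authors aligned reads with Bowtie 2 and called peaks with MACS2. The deposited score of each peak was the whole part of a multiple of its −log10 p-value, and the deposited fold over the control and −log10 q-values are the authors' own. The deposited annotation gives other values, the class, the nearest start site and the gene of each peak. The Reporting Summary names broad peaks and a q-value of 0.01, whereas the lists are narrow peaks and most have higher q-values. It also names the vehicle-treated sample as the control. The series holds no vehicle-treated C4-2B sample, so the control of these lists is unknown. Depth per peak is unknown. The submitters' notes name hg38, but the last chromosome 1 peaks end at 249119849 and 249191832, beyond that chromosome in hg38, and transcript names are those of hg19. The first peak of each list has no annotation, and neither is wide. The conservative and optimal annotated tables were identical.

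Peaks were split at 800 bp within each list. Shares carry exact (Clopper-Pearson) and their differences Newcombe 95% intervals, tested on simulated data. Overlap needed 1 bp. Genes were named by a rule: the 10 widest peaks, the 10 genes with most wide peaks, the 10 widest with a summit within 1 kb of a start site, sites wide in both lists, gene-list members, and peaks at the threshold. Further ones are marked, and a few that the rule names are not reported here. The members, lists and comparisons were chosen with earlier results of these data known. Alternatives were other widths, a −log10 q of at least 2, no chromosome Y, other overlap, promoter and neighbour distances and other sets of narrower peaks. Python 3.11.15, pandas 2.3.3, scipy 1.17.1, statsmodels 0.14.6 and matplotlib 3.10.9 were used.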

Additional observations from a re-analysis of the deposited data

How the results depend on the processing

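No paired analysis was possible because only 1 sample stands for each treatment. Of 116 alternative values for 18 results, 74 were unchanged. For a difference, unchanged meant the same sign and the same reading of whether its interval included no difference. For a count, it meant a value within the fold given at the end of this section. Of the rest, 20 were counts that moved further and 8 were differences that changed sign. Another 12 differences became weaker and 2 stronger, with the sign kept and only the reading of the interval changed. Values are for abiraterone, then Romidepsin, and differences are wide minus narrower in percentage points. The limits are the single sample per treatment, the unknown depth, the unknown control and a width set by the caller.

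At 600 bp or more there were 7097 and 10022 peaks, 4444 and 6071 genes, 85 and 84 peaks wide in both lists, summit overlap differences of 0.43 and 0.37 whose intervals excluded 0, and a Romidepsin spacing difference of 0.69, whose interval included 0. At 1000 bp there were 387 and 701 peaks, 379 and 661 genes and 0 wide in both lists. With both lists cut to a −log10 q of at least 2 there were 588 and 181 wide peaks, 555 and 180 genes and 0 wide in both. The overlap differences then were -0.014 and -0.061, and for Romidepsin the promoter difference was 1.47, exon 2.29, summit distance 0.88, summit overlap -0.14 and spacing -1.43. The abiraterone exon difference was 1.33. The intervals of these differences included 0. With 50% of both peaks shared, overlap differences were 0.49 and -0.16 and 3 sites stayed wide in both. Within 200 bp around the summits the Romidepsin overlap difference was 0.24, and within 3 kb the spacing difference was -1.66, also with intervals that included 0.

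Alternatives added after seeing the data used other narrower peaks. Against those of 600 to under 800 bp, promoter differences were 1.48 and 0.72, summit distance 0.79 and 0.090, the abiraterone exon 0.11 and the Romidepsin summit overlap -0.25. Against those of at least 200 bp, abiraterone spacing was 0.84. These intervals included 0. Those of the Romidepsin exon difference (1.84) and both overlap differences (2.87 and 1.11) against peaks of 600 to under 800 bp, and of Romidepsin spacing against those of at least 200 bp (7.84), excluded 0. The cause was not tested. The peaks joined within 300 bp, 2310 and 3860, stayed within 1.5 times.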

Other observations

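Peaks of 1 list within 300 bp of each other were joined, an alternative chosen after seeing the data. This left 58452 abiraterone and 85558 Romidepsin regions, of which 2310 (3.95%) and 3860 (4.51%) were 800 bp or more. Of these, 666 (28.8%) and 1115 (28.9%) held no wide peak and were made of narrower peaks only. The widest joined region was 2549 bp of 3 peaks in the abiraterone list and 2377 bp of 2 peaks in the Romidepsin list. Only 56 wide abiraterone (3.40%) and 115 wide Romidepsin peaks (4.18%) had another peak within 300 bp.

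The wide peaks of highest fold were named after their values were seen. In the abiraterone list they lay near SBF1P1 (844 bp, fold 8.55), in exon 3 of 42 of CHD5, a chromatin remodeller (1011 bp, fold 7.60), and in intron 3 of 8 of R3HCC1L (804 bp, fold 7.46). In the Romidepsin list they lay in intron 18 of 47 of SORL1, a sorting receptor (1134 bp, fold 7.55), near the lysosomal channel gene TPCN2 (1191 bp, fold 6.97) and in intron 1 of 25 of EPB41L4B (825 bp, fold 6.97). None of these 6 was overlapped by a peak of the other list.

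At least 2 wide peaks in each list were found near 26 genes, also named after their values were seen. Of 13600 genes with an abiraterone peak, 151 had 2 wide peaks and 31 had more. Of 16464 with a Romidepsin peak, 287 had 2 and 80 had more. The 26 genes had many peaks, 13 to 119 in the abiraterone and 12 to 98 in the Romidepsin list. The median of genes with a wide peak was 8 in either list. CAMTA1 had 2 and 3, MKI67 2 and 3, NFIA 3 and 2 and XYLT1 3 and 2 wide peaks in the abiraterone and Romidepsin lists. For KCNMA1, a potassium channel gene, the abiraterone peaks of 955 to 1232 bp lay within the span of the Romidepsin peaks of 826 to 1002 bp, but none overlapped.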
